A study of Mus musculus with 5 samples.

Results

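Complement is a cascade of plasma proteins that tags surfaces for removal and can pierce membranes. The classical arm starts when C1q binds a target and the protease C1s, carried with it, cuts C4 and C2. The alternative arm amplifies through factor B and factor D. Both arms meet at C3, and the terminal proteins from C5 to C9 assemble the membrane attack complex. Most circulating complement is made by the liver, but fibroblasts, epithelia and macrophages of many tissues, the eye included, transcribe parts of the cascade, and C1q is mainly a macrophage product. The 9 genes described here were chosen by symbol as components or regulators of that cascade. They are the classical genes C1qa, C2 and C4b, the alternative arm genes C3, Cfb and Cfd, the terminal genes C6 and C7, and Serping1, which encodes the inhibitor of C1. They were 9 of 56941 genes in the count table, and all 9 were among the 19713 that reached 10 counts in any 1 pool, Cfd through a single DBA/2J pool.

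RNA came from the iridocorneal angle, the ring through which aqueous humor leaves the eye, of 12-month-old untreated mice of both sexes. DBA/2J mice carry a nonsense allele of Gpnmb and the Tyrp1 b allele and develop pigment dispersion with raised eye pressure. Mice of the strain labelled DBA/2J-Gpnmb+/SjJ, called Gpnmb+ here, keep Tyrp1 b but have a functional Gpnmb. Both strains are on the DBA/2J background, which is known for lacking complement C5. Each library was a pool of several animals, with 3 pools of DBA/2J and 2 of Gpnmb+, and the methods give 3 mice per pool, but the library labels name 3 animals per pool for DBA/2J and 2 for Gpnmb+.

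The counts on genes summed to between 43900661 and 49837758 per pool. Myoc, Mgp and Angptl7, markers of the trabecular meshwork, were abundant in all pools, and defining markers of neighbouring ciliary epithelium, cornea and pigment cells were present as well. Levels are given as CPM, the counts of a gene over the scaled library total (TMM scaling in edgeR) times 1e6. The 4 Y-linked genes read together stood at 159, 199 and 66.2 CPM in DBA/2J pools 1, 2 and 3, but at 0.0394 and 0.102 CPM in the Gpnmb+ pools. Xist, the RNA that silences one X chromosome in females, was at 13.4, 0 and 54.2 CPM against 155 and 187. The Gpnmb+ libraries thus held almost no male RNA although their label names both sexes, and genotype and sex make-up cannot be told apart in any comparison of all pools. In bulk tissue, a change in the number of cells of a type and a change in RNA per cell cannot be told apart either.

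Genotypes were compared with edgeR's quasi-likelihood test on all 19713 genes. To be called, a gene needed a fold change of 1.5 or more and an adjusted p-value (Benjamini-Hochberg) no higher than 0.05, and log2 fold changes are DBA/2J over Gpnmb+. Of the 9 complement genes 1 was called, C7, and it was higher. Over all genes 0.796% were called, 0.502% higher and 0.294% lower. An unadjusted p-value of 0.05 or less was found for 5 of the 9 and for 15.9% of all genes. Their median log2 fold change was 0.46, against -0.02 over all genes tested, and it was 0.041 with the Y-linked level as a covariate. Y-linked RNA was almost absent from both Gpnmb+ pools, so the covariate slope rests on the DBA/2J pools. That fit therefore cannot separate sex from genotype, and the same limit holds for its values of single genes below. The terminal gene C7 rose 8.64-fold and C3, at the junction of the arms, was 4.02-fold higher without passing the threshold. The classical genes C1qa and C4b and the inhibitor gene Serping1 were 1.34-fold to 1.47-fold higher without passing it, and C2 and C6 had nearly equal means. In 5 of the 9 genes every DBA/2J pool lay above both Gpnmb+ pools, an arrangement shown by 17.3% of all genes tested, and 34.5% had separate groups in either direction. The share of all genes called was 4.7% with DESeq2, 0.964% with limma-voom, 0.837% with DESeq2's size factors, 0.851% with the filterByExpr filter, 1.12% both with no count minimum and with the pool number as a replicate block, and 0.0101% with the Y-linked level as a covariate. With a pool left out it was 0.0307%, 0.0051% and 0.0868% without DBA/2J pool 1, 2 or 3, and 1.12% and 0.0103% without Gpnmb+ pool 1 or 2.

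**Figure D1:**
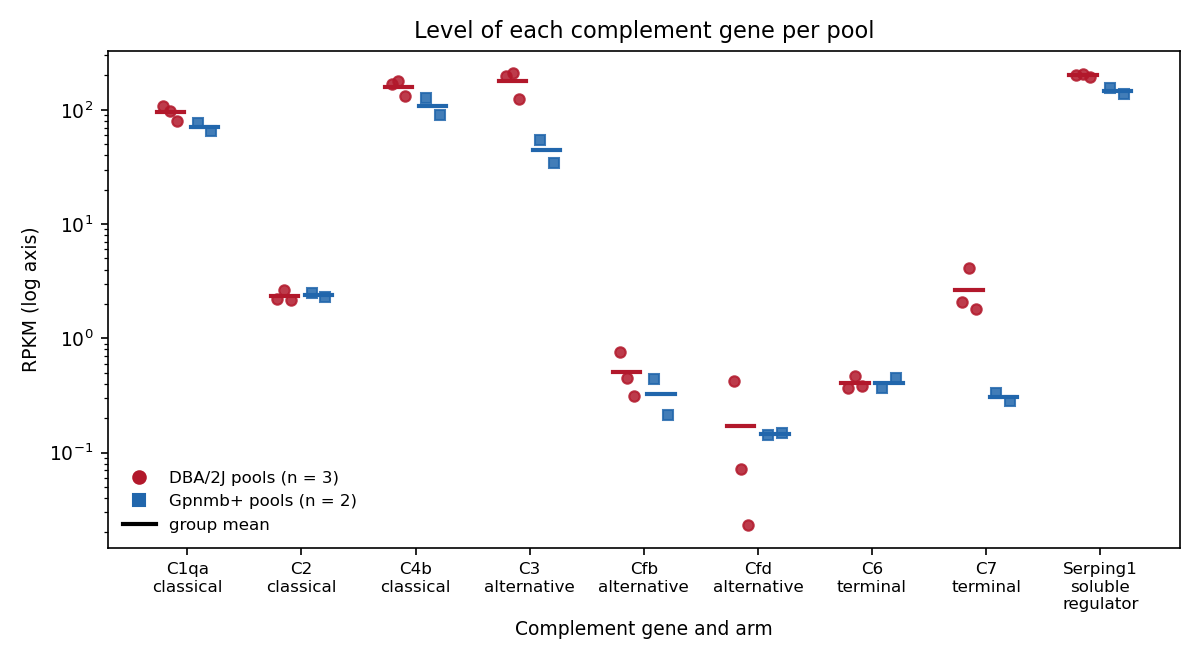
Level of the 9 complement genes in each pool, in RPKM (CPM per kilobase of exon, log axis), with DBA/2J pools as circles, Gpnmb+ pools as squares and group means as bars. The DBA/2J and Gpnmb+ points are clear of each other for C1qa, C4b, C3, C7 and Serping1, with the widest gaps at C3 and C7, and overlap for C2, Cfb, Cfd and C6.

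C1qa encodes the A chain of C1q, the recognition protein of the classical arm, at chr4:136623223-136626161 of the GRCm39 assembly. Its level was 173, 158 and 129 CPM in the DBA/2J pools, in the order 1, 2, 3 used throughout, against 124 and 104 CPM in the Gpnmb+ pools. The groups did not overlap, but DBA/2J pool 3 was close to Gpnmb+ pool 1. C1qa differed by 0.42 on the log2 scale (standard error 0.15, adjusted p = 0.259 by edgeR). With the Y-linked level as a covariate the difference was 0.041 (adjusted p = 0.990 by edgeR). C1qc, which encodes another chain of the same protein and sits between C1qb and C1qa, had a log2 fold change of 0.42 as well (adjusted p = 0.281 by edgeR).

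C2, the protease that C1s cuts to form the C3 convertase, lies on chromosome 17 from 35081578 to 35117241. It was at 9.49, 11.4 and 9.26 CPM in DBA/2J and at 10.7 and 9.94 CPM in Gpnmb+, so the groups overlapped. The log2 fold change was -0.04, with a 95% interval from -0.39 to 0.31. C2 shares 191 exonic bases, 4.43% of its exon length, with Zbtb12 on the other strand. Gm20547, annotated as protein-coding on the same strand, overlaps 19441 bases of the C2 gene and had 0 counts in every pool. Whether reads shared with Gm20547 were left out of the C2 count was not tested. The strand used in counting is not given in the sources used here.

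C4b encodes C4, the other part of the classical convertase, on chromosome 17 from 34947354 to 34962912. It was at 1015, 1083 and 794 CPM in DBA/2J and at 764 and 548 CPM in Gpnmb+. The lowest DBA/2J pool, pool 3, stood just above the higher Gpnmb+ pool. C4b differed by 0.56 on the log2 scale (standard error 0.20, adjusted p = 0.264 by edgeR), short of the threshold, and by 0.057 with the Y-linked covariate (adjusted p = 0.990 by edgeR).

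C4b has a near-identical copy, C4a, which lies 65.2 kb away on the same strand and encodes the sex-limited protein, a form known for its androgen dependence in some strains. Over 5202 aligned coding bases the reference transcripts were 96.2% identical, and 16.3% of the 100-base windows of the C4b transcript occurred unchanged in C4a. The stretch of 60 coding bases with the most differences between them, 13, is shown because reads over such places separate the copies. It lies in exon 21 of C4b at chr17:34954404-34954463 and in exon 21 of C4a at chr17:35035062-35035121 of GRCm39, both on the minus strand, and capitals mark the bases that differ.
C4b: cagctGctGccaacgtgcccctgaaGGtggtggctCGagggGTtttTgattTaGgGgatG
C4a: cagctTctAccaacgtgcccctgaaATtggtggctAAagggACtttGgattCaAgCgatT

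C4a counts were 1887, 1985 and 1489 in DBA/2J and 1620 and 1096 in Gpnmb+. Of the counts on both copies, C4a took 4.01% (95% Wilson interval 3.84% to 4.19%), 4.10% (3.92% to 4.28%) and 4.03% (3.84% to 4.24%) in the DBA/2J pools. In the Gpnmb+ pools it took 4.01% (3.82% to 4.21%) and 3.93% (3.71% to 4.16%). All 5 intervals overlapped, and they cover counting error only. C4a was also the gene whose pattern over the 5 pools was closest to that of C4b of all 15177 compared, with log2 CPM values, each centred on its gene's mean, that differed by 0.0142 on average. Whether the C4a counts come from C4a RNA or from C4b reads placed on the copy was not tested, and the C4b value is uncertain to that extent.

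C1s1 and C1ra encode the classical proteases C1s and C1r. C1s1 had a log2 fold change of 0.07 (95% interval -0.13 to 0.27) and C1ra of 0.24 (-0.08 to 0.55). Of the 10 classical genes listed, edgeR called 0, as did DESeq2 and limma-voom, 4 passed an unadjusted p-value of 0.05, and the median log2 fold change was 0.29.

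C3 is the protein on which all arms converge, and its fragments are the main tags left on a surface. The gene lies on chromosome 17 from 57510964 to 57535155. It was at 1036, 1082 and 645 CPM in DBA/2J and at 282 and 176 CPM in Gpnmb+. Every DBA/2J pool was more than 2 times as high as either Gpnmb+ pool, and DBA/2J pool 3 was again the lowest of its group. The fold change was 4.02 (log2 2.01, standard error 0.31, 95% interval 1.25 to 2.77, adjusted p = 0.0556 by edgeR), just outside the threshold. DESeq2 (adjusted p = 7.6e-10) and limma-voom (adjusted p = 0.0472) called it at nearly the same fold change. With the Y-linked level as a covariate in edgeR, the log2 fold change of C3 was 1.13 (adjusted p = 0.590), a fit in which 2 genes in all were called and in which the covariate slope rests on the DBA/2J pools.

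The 250 bases before the annotated start of C3 are printed with those of C7 and C6, because C3 and C7 had the largest fold changes of the 9 genes and C6 is a neighbour of C7 with none. Matches on either strand to 5 motifs are in capitals. They are GGG and CC with any 5 bases between for NF-kB, TTGCNNAA for C/EBP, TTCNNNGAA for STAT proteins, TGANTCA for AP-1, and a GAAA pair with any 2 bases between for IRF proteins, loose forms of sites known for inflammatory factors. Of 21738 protein-coding promoters of this length, 47.9% held the first, 9.34% the second, 7.69% the third, 6.18% the fourth and 3.32% the last. The windows are chr17:57535156-57535405 for C3 and chr15:5093253-5093502 for C7, both on the minus strand, and chr15:4756275-4756524 on the plus strand for C6, all read from GRCm39.
C3: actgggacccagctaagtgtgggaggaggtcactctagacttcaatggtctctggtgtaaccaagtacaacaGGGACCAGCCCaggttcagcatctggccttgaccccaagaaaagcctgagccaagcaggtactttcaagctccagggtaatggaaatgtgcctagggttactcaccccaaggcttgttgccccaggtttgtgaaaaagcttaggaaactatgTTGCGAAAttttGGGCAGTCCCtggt
C7: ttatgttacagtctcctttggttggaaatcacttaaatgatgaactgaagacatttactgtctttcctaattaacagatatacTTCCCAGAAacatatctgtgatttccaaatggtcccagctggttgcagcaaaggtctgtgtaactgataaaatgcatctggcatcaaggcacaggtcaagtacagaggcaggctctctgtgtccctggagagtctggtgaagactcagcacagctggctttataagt
C6: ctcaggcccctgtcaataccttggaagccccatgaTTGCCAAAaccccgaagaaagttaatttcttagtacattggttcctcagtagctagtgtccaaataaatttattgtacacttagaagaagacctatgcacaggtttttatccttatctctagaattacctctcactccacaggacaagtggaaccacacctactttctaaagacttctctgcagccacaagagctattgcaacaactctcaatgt

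The C3 window held 3 matches to the NF-kB motif, of which 2 overlap, and 1 to TTGCNNAA. C7 held 1 match to TTCNNNGAA and C6 held 1 to TTGCNNAA. C3 and C7, the genes with the largest differences, shared no motif of the 5 in these windows. A match describes the letters only and is not evidence of binding.

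Cfb encodes factor B, the alternative arm counterpart of C2. The gene lies on chromosome 17 from 35074852 to 35081559, with 18 bases between it and the end of C2 on the same minus strand. Reads were few: DBA/2J pools had 116, 66 and 48 counts against 76 and 36 in the Gpnmb+ pools. The groups overlapped, and DBA/2J pool 1 had more than 2 times the count of DBA/2J pool 3. The log2 fold change was 0.64 (95% interval -0.55 to 1.83, adjusted p = 0.577 by edgeR), and it ran from 0.22, without Gpnmb+ pool 2, to 1.24, without Gpnmb+ pool 1. Nelfe on the other strand covers 49.8% of the annotated exon bases of Cfb and had between 1188 and 1458 counts per pool. Gm20547, on the same strand, overlaps 6172 bases of the Cfb gene and had 0 counts in every pool. Whether shared reads were left out of the Cfb count was not tested, so the few reads given to Cfb are uncertain.

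Cfd encodes factor D, the protease that activates factor B and a known product of fat cells, at chr10:79726668-79728496. Its reads came to 18, 3 and 1 counts in DBA/2J, against 7 and 7 in the Gpnmb+ pools. DBA/2J pool 1 held the highest count and the other DBA/2J pools the lowest, so no direction can be read, and a difference was not detectable at this depth (log2 95% interval -2.34 to 2.81). Adipoq, a defining adipocyte gene, had 5 to 15 counts per pool. The adipocyte list as a whole summed to 47.6 to 64.7 CPM in DBA/2J, against 103 and 234 CPM in Gpnmb+.

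Cfp, the gene of properdin, which stabilizes the alternative convertase, had a log2 fold change of 0.25 (95% interval -0.77 to 1.27). Of the 4 alternative arm genes, C3 included, 0 were called by edgeR, 1 (C3) passed an unadjusted p-value of 0.05 and DESeq2 and limma-voom each called 1.

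C7 encodes the terminal protein that anchors the growing attack complex in the membrane. The gene lies on chromosome 15 from 5017233 to 5093252. It was at 11.1, 22.1 and 9.71 CPM in DBA/2J and at 1.79 and 1.51 CPM in Gpnmb+, from 494, 949 and 433 counts against 91 and 74. The lowest DBA/2J pool was more than 5 times the higher Gpnmb+ pool, and DBA/2J pool 2 was about 2 times the other DBA/2J pools. C7 rose 8.64-fold (log2 3.11, standard error 0.43, 95% interval 2.06 to 4.16, adjusted p = 0.0467 by edgeR). The call was lost with any of the 5 pools left out, where the log2 fold change ran from 2.65, without DBA/2J pool 2, to 3.33, without DBA/2J pool 3, and the adjusted p-value from 0.0775 to 0.202 by edgeR. With the Y-linked level as a covariate the log2 fold change was 1.91 (adjusted p = 0.450 by edgeR).

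C6 acts one step before C7 in the same complex, and its gene is the neighbour of C7 on chromosome 15, from 4756525 to 4844580, with 173 kb and the protein-coding gene Mroh2b between them. C6 had 70, 86 and 73 counts in DBA/2J, against 79 and 95 in the Gpnmb+ pools. The groups overlapped. The log2 fold change was -0.01 (95% interval -0.60 to 0.58), an interval that lies below that of C7.

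The other terminal genes were low. Hc, the gene of C5, had 9, 4 and 11 counts in DBA/2J, against 4 and 1 in the Gpnmb+ pools. It was tested only because DBA/2J pool 3 passed the count minimum, so no fold is read from it. C8g, the small chain of C8, had 56, 47 and 47 counts against 34 and 32 (log2 fold change 0.78, adjusted p = 0.246 by edgeR). C8a, C8b and C9, which make the rest of C8 and the ring of the pore, had 4 counts or fewer in every pool and were not tested. Of the 4 terminal genes tested, edgeR called 1, C7, DESeq2 1 and limma-voom 0.

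**Figure D2:**
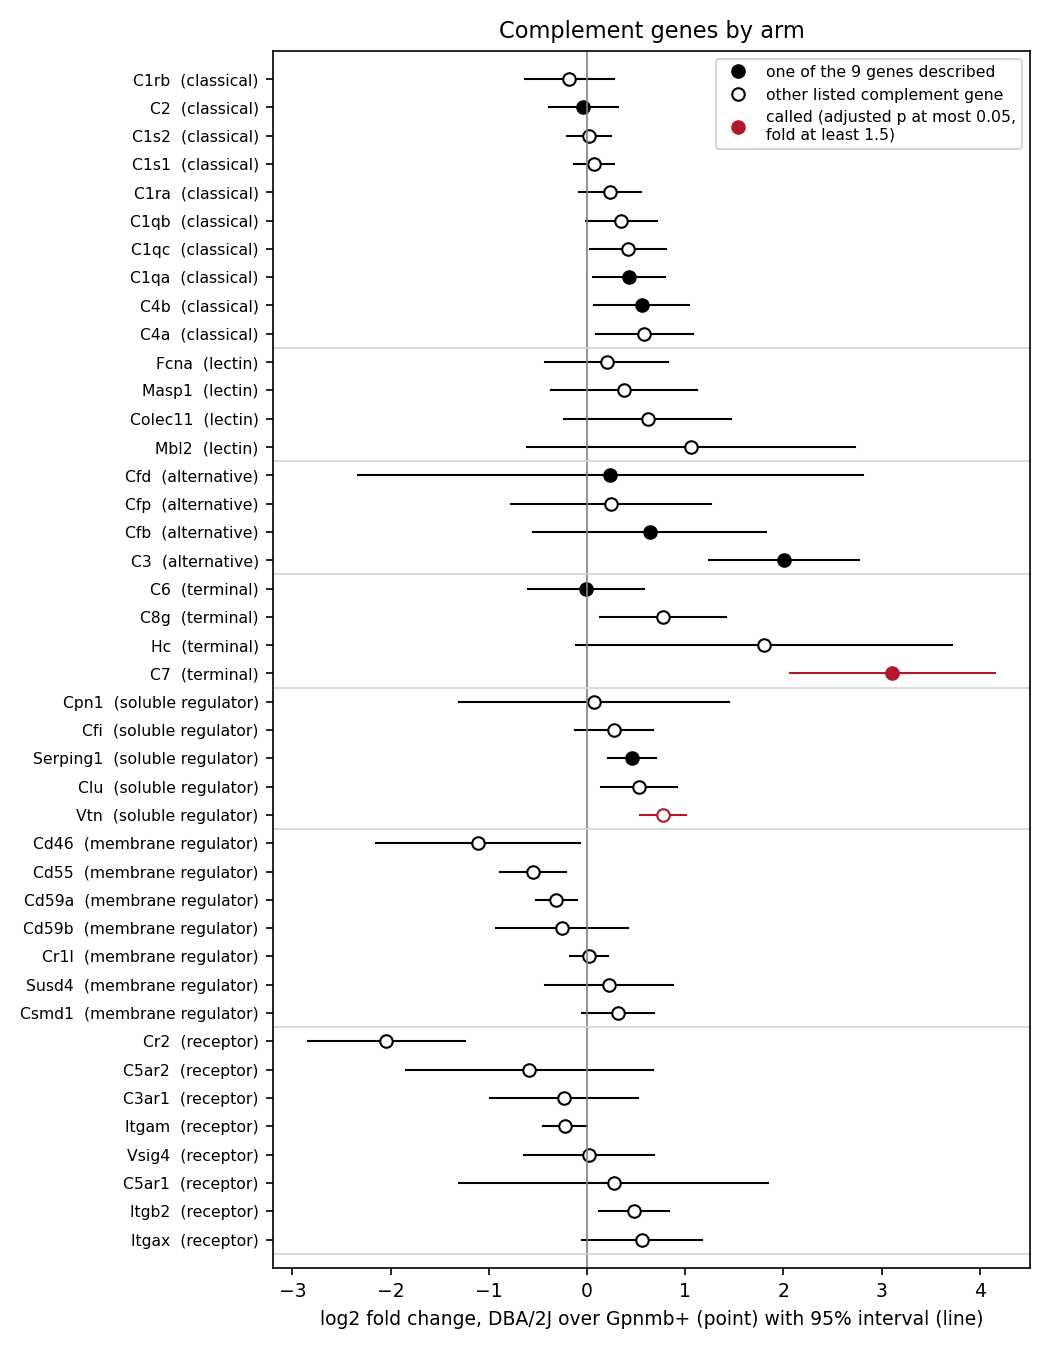
Log2 fold change (x axis, DBA/2J over Gpnmb+) with its 95% interval for tested complement genes, grouped by arm on the y axis, with filled points for the 9 genes described and red for called genes. C7 at 3.11 and C3 at 2.01 stand to the right of the other genes of their arms, and the classical genes lie between -0.18 and 0.58.

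Serping1, on chromosome 2 from 84595705 to 84620873, encodes the C1 inhibitor, which stops C1r, C1s and the proteases of the lectin arm. It was at 616, 626 and 585 CPM in DBA/2J and at 468 and 417 CPM in Gpnmb+. The pools of a group were close together and the groups did not overlap. Serping1 differed by 0.46 on the log2 scale (standard error 0.10, 95% interval 0.22 to 0.71, adjusted p = 0.109 by edgeR), and at 1.38-fold it also lay under the minimum of 1.5. DESeq2 gave an adjusted p-value of 0.000244 and did not call it, because of that minimum. With the Y-linked covariate the log2 difference of Serping1 was 0.35 (adjusted p = 0.767 by edgeR).

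Among the other soluble regulators, edgeR called Vtn, which encodes vitronectin, a protein that blocks insertion of the C5b-7 complex. Vtn had 3178, 3265 and 3198 counts in DBA/2J, against 2328 and 1936 in the Gpnmb+ pools. It rose 1.71-fold (log2 0.77, standard error 0.10, adjusted p = 0.0382 by edgeR). Its log2 fold change lay between 0.67 and 0.89 with each pool left out, and it was called by edgeR without Gpnmb+ pool 1 and in none of the other 4 such fits (adjusted p 0.120 to 0.151). The call of Vtn was also lost with the Y-linked covariate (log2 fold change 0.70, adjusted p = 0.500 by edgeR) and with the replicate block (adjusted p = 0.0593 by edgeR). Clu, the gene of clusterin, another inhibitor of the terminal complex, was the most abundant complement regulator at 2551 ± 140 CPM (SD, n = 3) in DBA/2J and 1763 ± 357 CPM (SD, n = 2) in Gpnmb+ (log2 fold change 0.53, adjusted p = 0.193 by edgeR). Cfi, the gene of factor I, a protease that inactivates C3b and C4b, had a log2 fold change of 0.27 (95% interval -0.13 to 0.67).

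Of the 7 membrane regulators tested 4 had a log2 fold change below 0 and 0 were called by edgeR, DESeq2 or limma-voom, with 3 at an unadjusted p-value of 0.05 or less in edgeR. Cd55, the decay-accelerating factor, had 1150, 1171 and 1133 counts in DBA/2J, against 1669 and 2148 in the Gpnmb+ pools (log2 fold change -0.55, adjusted p = 0.141 by edgeR). Cd59a, which encodes an inhibitor of the final pore, had a log2 fold change of -0.31 (adjusted p = 0.171 by edgeR). Cr1l, the rodent regulator Crry, had a log2 fold change of 0.02 (95% interval -0.18 to 0.21). Cd46, largely a testis gene in mice, had 9 to 15 counts in DBA/2J, against 22 and 32 in the Gpnmb+ pools (log2 fold change -1.11, adjusted p = 0.289 by edgeR).

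Receptors for complement fragments are mostly carried by leukocytes. Of the 8 listed, 4 were on each side of 0, edgeR and limma-voom called 0, 2 passed an unadjusted p-value of 0.05, and DESeq2 called 1. That gene was Cr2, the C3d receptor of B cells, which counted 11, 10 and 8 in DBA/2J against 42 and 49 in the Gpnmb+ pools (log2 fold change -2.04, standard error 0.33, adjusted p = 0.0607 by edgeR and 0.0075 by DESeq2). Itgb2, the shared beta chain of the leukocyte complement receptors, had a log2 fold change of 0.48 (adjusted p = 0.199 by edgeR). Itgax, the alpha chain of one of them, had 0.56 (adjusted p = 0.350 by edgeR). Itgam, another such alpha chain, went the other way at -0.23 (adjusted p = 0.315 by edgeR). C3ar1, the C3a receptor, had -0.23 (95% interval -0.99 to 0.52), and its Gpnmb+ pools were far apart at 6334 and 3017 counts.

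The lectin arm, which recognises sugars on microbes, was thinly transcribed. Mbl1, Fcnb and Masp2 had 3 counts or fewer in every pool, and Mbl2 had 15, 9 and 4 counts in DBA/2J, against 5 and 5 in the Gpnmb+ pools. Mbl2 was tested only because DBA/2J pool 1 passed the count minimum, so no fold is read from it. Masp1, a protease gene of that arm, had 1228 to 2602 counts per pool and a log2 fold change of 0.38 (95% interval -0.37 to 1.12), which ran from 0.040, without Gpnmb+ pool 2, to 0.83, without Gpnmb+ pool 1. Fcna and Colec11, which encode recognition proteins, had log2 fold changes of 0.20 and 0.62. Of the 4 lectin genes tested 0 were called by edgeR, DESeq2 or limma-voom and 0 passed an unadjusted p-value of 0.05.

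Over the whole list of 53 complement genes, 43 were tested, 31 had a positive log2 fold change against 47.4% of all genes tested, and 2 were called, both higher. The median log2 fold change was 0.25, and 0.034 with the Y-linked covariate. The count of positive genes is tilted by the count minimum, since Cfd, Hc and Mbl2 passed it through 1 DBA/2J pool each while sparse genes such as Colec10, with 5 and 6 counts in Gpnmb+ and 0 to 2 in DBA/2J, did not pass. The 43 genes include copies that share reads, such as C4a with C4b, so they are not independent of one another.

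Ratios of 2 genes within a pool do not depend on how the libraries were scaled, and 7 pairs were compared across the arms. C7 had 7.06, 11.0 and 5.93 counts for each C6 count in the DBA/2J pools, against 1.15 and 0.779 in the Gpnmb+ pools. The mean log2 ratio was 2.95 ± 0.46 (SD, n = 3) against -0.08 ± 0.40 (SD, n = 2). These neighbouring terminal genes were therefore near parity in Gpnmb+ and several-fold apart in every DBA/2J pool.

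C3 matched C4b in DBA/2J, with 1.02, 1.00 and 0.812 C3 counts for each C4b count, and was well below it in Gpnmb+, at 0.369 and 0.321. The difference in mean log2 ratio was 1.45. For C3 to C1qa it was 1.59, with 5.00 to 6.85 C3 counts for each C1qa count against 2.28 and 1.69, and for C7 to C4b it was 2.46. Pools of the genotypes did not overlap in any of these ratios.

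The other ratios had overlapping groups or few counts. Cfb to C2, the homologous proteases of the alternative and classical convertases, differed by 0.68 on the log2 scale with overlapping groups, and Serping1 to C4b by -0.10 with overlapping groups. Cfd to C3 differed by -2.72, a lower ratio in DBA/2J, which rests on single-digit Cfd counts in 4 of the 5 pools. With 3 pools against 2, the exact two-sided permutation test as run, which doubles the smaller tail, cannot go below p = 0.2 for a single ratio. C7 to C6, C3 to C4b, C3 to C1qa, C7 to C4b and Cfd to C3 reached that value (adjusted p = 0.28 over the 7 ratios, exact permutation test), so no ratio could pass a threshold of 0.05.

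**Figure D3:**
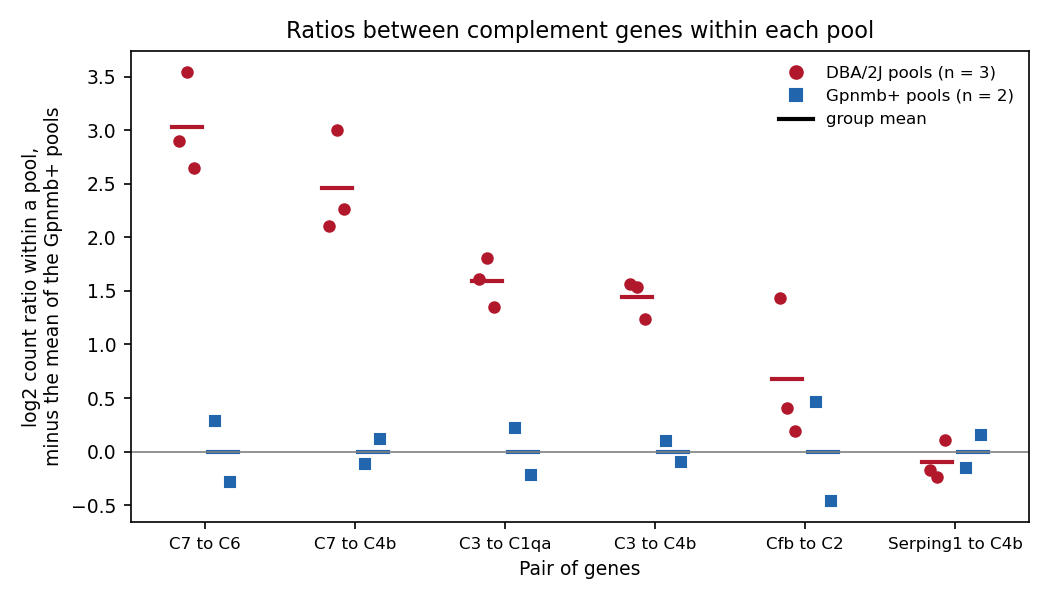
Log2 ratio of counts of 2 genes within each pool (y axis), shown minus the mean of the Gpnmb+ pools, for 6 pairs of complement genes (x axis), with DBA/2J pools as circles, Gpnmb+ pools as squares and bars at group means. The DBA/2J points lie above both Gpnmb+ points for C7 to C6, C7 to C4b, C3 to C1qa and C3 to C4b, by 3.03, 2.46, 1.59 and 1.45 on average, and overlap for the other pairs.

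Levels were compared between genes per kilobase of exon. Those of C2 and Cfb, and the Cfb to C2 ratio above, carry the limit of the overlap with Gm20547. In Gpnmb+ the order by mean RPKM was Serping1 (146 ± 12.0, SD, n = 2), C4b (108 ± 25.3), C1qa (70.9 ± 8.59), C3 (44.2 ± 14.5), C2 (2.39 ± 0.122), C6 (0.409 ± 0.0637), Cfb (0.327 ± 0.158), C7 (0.309 ± 0.0371) and Cfd (0.146 ± 0.00377). In DBA/2J C3 stood second at 178 ± 46.4 RPKM (SD, n = 3), after Serping1 at 201 ± 7.05 and before C4b at 159 ± 24.9, and the pools of C3 overlapped those of both. By this length C7 moved from the eighth place to the fifth, at 2.67 ± 1.27 RPKM, where its pools overlapped those of C2 at 2.33 ± 0.268. In Gpnmb+ the pools of Cfb overlapped those of C6 and C7, while C6 lay above C7. With the longest transcript as length, C7 stood above Cfb in Gpnmb+ (0.465 against 0.334 RPKM) and C6 above Cfb in DBA/2J (0.578 against 0.520 RPKM), so the order of these sparse genes depends on the length used. C3 made up 29.2%, 29.9% and 23.3% of the summed RPKM of the 9 genes in the DBA/2J pools, against 13.1% and 10.3% in Gpnmb+. Serping1, C4b, C3 and C1qa together therefore made nearly all of the summed RPKM of these 9 genes, and the alternative arm proteases Cfb and Cfd and the terminal genes C6 and C7 each stayed under 1 percent of it in every pool.

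For C3, C4b and C7, the genes of closest pattern were sought among 15177 with a mean of at least 1 CPM, by the mean absolute difference in centred log2 CPM over the 5 pools. Many genes can match a pattern of 5 values, and nothing about shared control follows. Nr1h4, the bile acid receptor FXR, was closest to C3 (0.0935, against a median of 0.969 over all genes), followed by Cp, the gene of the copper protein ceruloplasmin (0.130), and Ch25h, a cholesterol hydroxylase (0.131). Cp had 99090, 75965 and 60220 counts in DBA/2J, against 28500 and 19685 in the Gpnmb+ pools (log2 fold change 1.89, adjusted p = 0.0479 by edgeR). After C4a, C4b was closest to Kctd16 (0.0421) and Rxrg (0.0466). C7 was closest to Col9a2 (0.386), Cckbr (0.408) and Grem1 (0.410), at a distance larger than those of C3 and C4b.

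Markers of other cells in the dissected ring were read beside these genes. The 10 macrophage markers, cells that make C1q, had a median log2 fold change of 0.15 and a summed level of 2900 to 4005 CPM in DBA/2J and of 2823 and 3698 CPM in Gpnmb+, with 0 called by edgeR, 1 at an unadjusted p-value of 0.05 and 1 called by DESeq2. The ranges overlapped. Of 7 markers of nonpigmented ciliary epithelium, 6 had an unadjusted p-value of 0.05 or less in edgeR and 3 were called higher (Six6, Mlc1 and Col9a1). Over all genes tested, 15.9% had such a p-value and 0.502% were called higher. All 7 log2 fold changes were above 0, but the lowest was flat at 0.000387. The summed level of the 7 was 1234 to 1374 CPM in DBA/2J and 505 and 314 CPM in Gpnmb+, with the most counts on Col18a1. Most ciliary epithelial markers thus moved with C3 and C7, and their part in those differences was not tested.

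Of 7 fibroblast markers 4 were above 0 and 0 were called by edgeR (2 at an unadjusted p-value of 0.05, 1 by DESeq2), with a median of 0.00 and sums of 4454 to 4531 CPM in DBA/2J, just under the 4912 and 4606 CPM of Gpnmb+. Of 6 trabecular meshwork markers 5 were below 0, and Tfap2b and Edn3 were called lower. Chil1 (Chi3l1 in the annotation), which had the most counts, had a log2 fold change of 1.17 (adjusted p = 0.103 by edgeR). An unadjusted p-value of 0.05 or less was found for 5 of the 6, and DESeq2 called 4. Their summed level was higher in DBA/2J, at 5060, 4113 and 4448 CPM, against 3438 and 2765 CPM in Gpnmb+. Neutrophil markers differed most within genotypes, with summed levels of 183, 15.0 and 19.8 CPM in DBA/2J and 62.8 and 8.18 CPM in Gpnmb+, highest in pool 1 of each, as Cfb was. Hepatocyte genes were close to absent, with Alb at 2 to 9 counts and Apoa1 at 0 to 5 per pool, apart from Ttr, which eye epithelia also transcribe. The 3 tested genes of that list, Ttr, Fga and Fgb, had log2 fold changes below 0 (median -1.63), with 0 called by edgeR, 1 at an unadjusted p-value of 0.05 and 1 called by DESeq2. The summed level of the list was 73.9 to 151 CPM in DBA/2J, below the 223 and 421 CPM of Gpnmb+, and nearly all of it was Ttr. The remaining lists had medians of 0.31 (adipocyte), 0.23 (endothelium), -0.15 (pigment cell), -0.13 (corneal epithelium), 0.23 (lens), -0.33 (smooth muscle) and 1.15 (skeletal muscle). Slc45a2 of the pigment cell list was the single call among them by edgeR. In the adipocyte list 3 of the 4 tested genes were above 0, but the summed level was lower in DBA/2J. It was 47.6 to 64.7 CPM there, against 103 and 234 CPM in Gpnmb+. The lowest adipocyte log2 fold change was -2.70, and DESeq2 called 1 gene of that list.

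**Figure D4:**
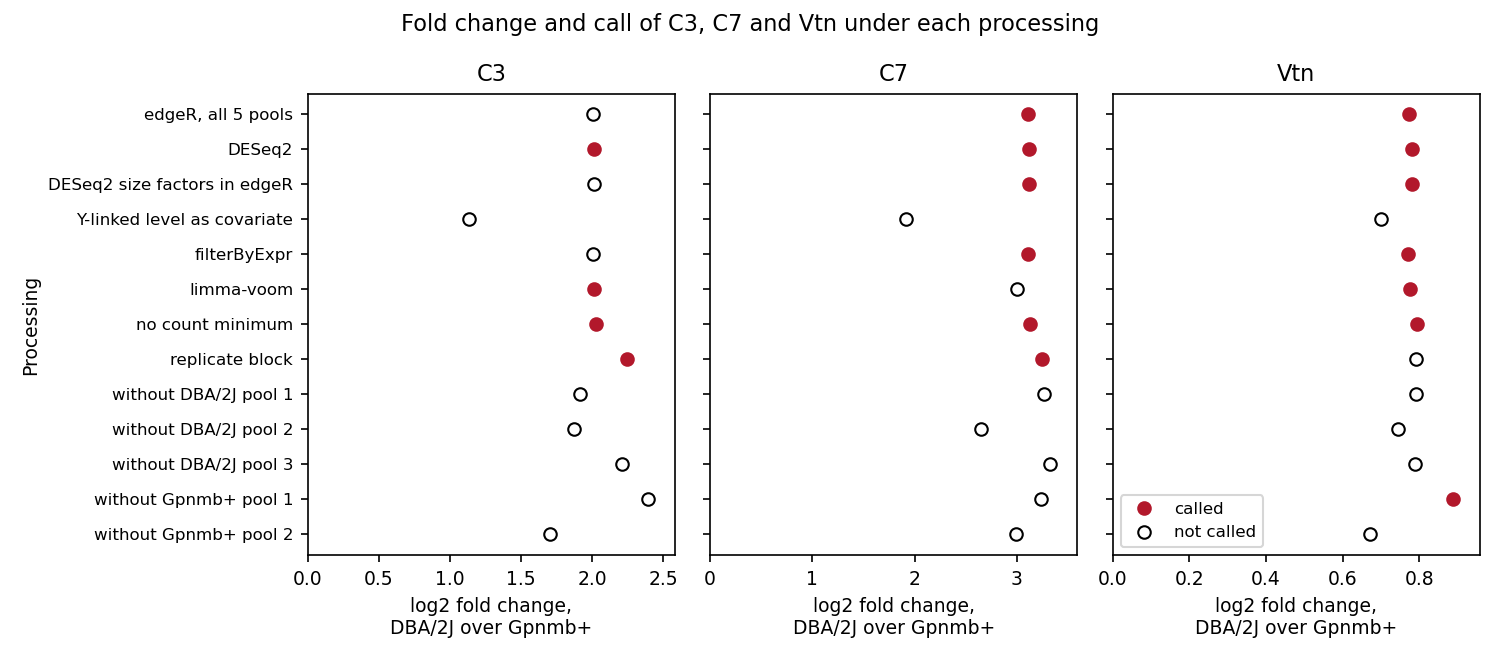
Log2 fold change (x axis, DBA/2J over Gpnmb+) of C3, C7 and Vtn under each processing (y axis), with filled points where the gene was called and open points where it was not. All values lie above 0, C3 from 1.13 to 2.39, C7 from 1.91 to 3.33 and Vtn from 0.67 to 0.89, while the calls come and go.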

How the data were processed

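RNA of iridocorneal angle pools (3 DBA/2J, 2 Gpnmb+) was sequenced as enriched mRNA in 100-base paired reads. Trimming was by fastp and alignment by STAR (GRCm39), and the authors deposited unnormalized read counts for each Ensembl gene, made from uniquely placed reads. Copies such as C4a and C4b therefore lose reads that match both. Per the submitters' processing notes DESeq2 was the authors' test.

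All 5 columns were used. Names, positions and exon lengths came from GENCODE mouse release M39 (GRCm39), and sequences from the matching genome. Genes reaching 10 counts in any 1 pool were scaled by TMM and tested in R 4.3.3 with edgeR 4.0.16 (quasi-likelihood, no covariate, Benjamini-Hochberg over all genes). Standard errors are the log2 fold change over the square root of F. Log2 CPM used a prior count of 2. Alternatives were DESeq2 1.42.0, limma-voom (limma 3.58.1), DESeq2's size factors, filterByExpr, no count minimum, no fold minimum, the pool number as a block, the Y-linked level as a covariate, and each pool left out. Ratios used scipy 1.17.1. Fits were tested on simulated data.

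The members, the lists of complement and cell type genes and the tests were chosen with earlier results of these data known. Named genes were the members, listed complement genes that were called, had an absolute log2 fold change of at least 1 or were among the 3 of highest level in their arm, the 3 closest in pattern, and called or most abundant markers. Adipoq, Myoc, Mgp, Angptl7, Alb, Apoa1, Ttr, Fga, Fgb, Colec10 and Itgam were named after their values were seen. The values of 1 listed gene, kept in the counts, are not reported here. Intervals on counts cover counting error only. The labels do not say whether pools came from separate litters, so p-values measure the spread between pools.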

Additional observations from a re-analysis of the deposited data

How the results depend on the processing

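The number of the 9 genes called by edgeR, 1 in the main setting (C7), was 2 with DESeq2, with no count minimum and with the replicate block (C3 and C7 each time), and 0 with the Y-linked level as a covariate and with any pool left out (2, and 3 to 5, at an unadjusted p-value of 0.05). limma-voom called C3 and not C7. Over the whole complement list the count, 2, was 4 with DESeq2 and with no count minimum, 0 with the covariate (4 unadjusted) and 0 to 1 with a pool left out. Over the cell type lists it was 6, and 17 with DESeq2, 11 with no count minimum, 14 with the replicate block, 0 with the covariate (21 unadjusted) and 0 to 7 with a pool left out. Without a Gpnmb+ pool, the lone sample is assumed to vary like the DBA/2J pools. The block pairs pools by number, which the labels do not tie to a shared origin. Deviations of same-numbered pools from their group means correlated at 0.279 and 0.254 in the only 2 pairs. The deviations of the 2 Gpnmb+ pools are mirror images, so these are not separate checks, and no pairing is read from them. The block called C3 (adjusted p = 0.0317, edgeR) and lost Vtn (0.0593).

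Signs turned for genes near 0 or sparse. With the covariate, the median of the 9 genes fell from 0.46 to 0.041 and that of the complement list from 0.25 to 0.034, and Cfb was -0.25, Cfd -2.08, Mbl2 -0.54, C1qc -0.014, Cr1l -0.073 and the median of the cell type lists -0.014 on the log2 scale. Cfd was -0.53 with limma-voom. C2 was 0.012 and C6 0.031 with the block, and C6 0.010 with no count minimum. With a pool left out, log2 fold changes ran from -0.14 to 0.017 (C2), -0.16 to 0.16 (C6), -0.017 to 0.057 (Cr1l), -0.20 to 0.90 (Cfp), -0.65 to 0.36 (C3ar1) and -0.076 to 0.55 (Fcna), and differences of ratios from 2.75 to 3.31 (C7 to C6), 1.35 to 1.55 (C3 to C4b), 0.22 to 1.14 (Cfb to C2), 1.37 to 1.81 (C3 to C1qa), 2.18 to 2.63 (C7 to C4b), -0.26 to 0.056 (Serping1 to C4b, positive without Gpnmb+ pool 2) and -3.73 to -1.99 (Cfd to C3). The cause of these shifts was not tested. Cfd was absent from the filterByExpr fit. The length of the longest transcript in place of all exons raised RPKM values in DBA/2J from 2.33 to 3.62 for C2, from 2.67 to 4.02 for C7, from 0.406 to 0.578 for C6, from 201 to 256 for Serping1 and from 95.1 to 112 for C1qa.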
